A study of Solanum lycopersicum with 27 samples.

Results

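The loci described here are those whose difference between water deficit and control changed sign between day 4 and day 8 in mature tomato leaf. For each of the 34688 loci in the count table, counts scaled to a common library total (counts per 1000000, CPM) were averaged within a group, and the difference was taken as log2(mean CPM + 1) in the deficit group minus the same in the control group. Of 11470 loci with unlike signs on the 2 days, the 150 with the largest value of the smaller of the 2 differences were kept. At 49 of them, called high-then-low here, the deficit group was higher than control at day 4 and lower at day 8. At the other 101, called low-then-high, it was lower at day 4 and higher at day 8. They were chosen by the values of days 4 and 8 in mature leaf, so the loci were selected on the outcome of those comparisons, whose values are given as a description, and tests are confined to day 5, to mature leaf at day 10 and to young leaf at day 10.

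The study followed wild-type Solanum lycopersicum plants of the cultivar Moneymaker, which were aged 50 days at the start, when the deficit arm received no more water while the control arm went on being watered up to soil capacity. Polyadenylated RNA was sequenced from single leaflets of mature leaves after 4, 5, 8 and 10 days, and from whole developing leaves, called young here, after 10 days. The 27 libraries form 10 groups, of which 7 hold 3 libraries and 3 hold 2, namely both mature day 8 groups and the mature day 10 control group. The labels do not say whether replicates came from separate plants, so p-values measure the spread between these libraries. Each day was a separate collection, and a change with day within an arm cannot be told apart from a difference between collections.

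Library totals ran from 14725924 to 19642202 counts. Replicate 1 of the mature day 10 deficit group went against its label. It correlated at r = 0.993 to 0.994 with the control libraries of that day and at 0.884 to 0.888 with the other libraries of its own group, while all other pairs within a group reached at least 0.985 (log2 CPM of 19087 loci). At 42 of the 49 high-then-low loci and 89 of the 101 low-then-high loci its level was nearer to the mean of the mature day 10 control libraries than to that of its own group. The set counts and the named differences at mature day 10 are given with and without it, and "deficit" below always means the label.

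When a plant runs short of water, its leaves build up the hormone abscisic acid, close their stomata and induce protective proteins, while genes of photosynthesis and growth are often turned down as the shortage deepens. A difference between droughted and watered plants on a given day reflects both arms, because leaves of watered plants also change as they age and with the time of day at which they are collected. The locus identifiers follow the tomato genome convention, in which the digits after "Solyc" give the chromosome and 00 stands for sequence that is not placed on a chromosome. None of them could be paired with a gene name or a protein, so the roles of these loci are not described, the leaf tissue could not be checked against marker genes, and no sequences are shown.

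At day 4 the deficit group exceeded control by a median of 0.84 on the log2 scale over the high-then-low loci and lay 0.82 below it over the low-then-high loci (median difference -0.82). At day 8 the medians were -1.42 and 1.43. The rule therefore found day 8 differences larger than those of day 4 in both sets, and the low-then-high loci reached up to 6.12 at day 8 against at most -1.95 at day 4. Day 8 differences were wider over all loci tested too, with quartiles of -0.53 and 0.57, against -0.11 and 0.23 at day 4. The spread between libraries of a group at day 4 was taken as a pooled SD of log2(CPM + 1). Its median was 0.19 over the high-then-low and 0.14 over the low-then-high loci, against 0.11 over all loci tested. At day 4 every deficit library was higher than every control library at 48 of the 49 high-then-low loci, against 29.4% of all 19087 loci tested, and lower at 100 of the 101 low-then-high loci, against 16.6%. At day 8 the corresponding numbers were 49 of 49 loci lower (42.8% of all loci) and 99 of 101 higher (43.0%). These counts follow from the selection and are not read further. The limit of the selection fell between values of 0.69091 and 0.68701 for the last 2 loci inside and 0.68656 and 0.68556 for the first 2 outside, so the 150 are the head of a continuous range.

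All 150 loci passed the filter on low counts. Their highest group mean ranged from 1.24 to 853.5 CPM among the high-then-low loci, with a median of 25.8, and from 1.40 to 3799 CPM among the low-then-high loci, with a median of 37.8. The median over all loci tested was 25.5 CPM. Highest group means under 5 CPM were found at 9 high-then-low and 10 low-then-high loci, where few reads carry the difference.

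The group levels below are a description and carry no test, since those of days 4 and 8 in mature leaf entered the selection. In both sets the deficit median of day 4 stood apart from that of day 5. The control medians of days 8 and 10 stood apart from those of days 4 and 5. Over the low-then-high loci the median level, as log2(mean CPM + 1), was 4.57 in control and 3.57 in deficit at day 4. At day 5 it was 4.22 and 4.63, and at day 8 it was 2.60 and 4.39. Among days 4, 5 and 8 the median deficit level was thus lowest at day 4, and the median control level was lowest at day 8. These medians do not compare the arms at the same locus. Locus by locus, the median difference at day 5 was -0.09, with the deficit mean lower at 55 and higher at 46 of the 101 loci. At day 10 the medians were 2.84 in control and 3.78 in deficit, or 3.95 without replicate 1, and in young leaf they were 3.33 and 4.84.

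The high-then-low loci had medians in the opposite order of the arms in all comparisons but day 5, where deficit was above control in both sets. Their median was 2.45 in control and 3.33 in deficit at day 4, and 2.65 and 2.80 at day 5. At day 8 it was 4.397 in control and 2.48 in deficit. At day 10 it was 3.80 and 3.42, the latter 2.56 without replicate 1, and in young leaf it was 4.11 in control and 3.19 in deficit. Over all loci tested the 10 group medians lay between 4.06 and 4.21.

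**Figure D1:**
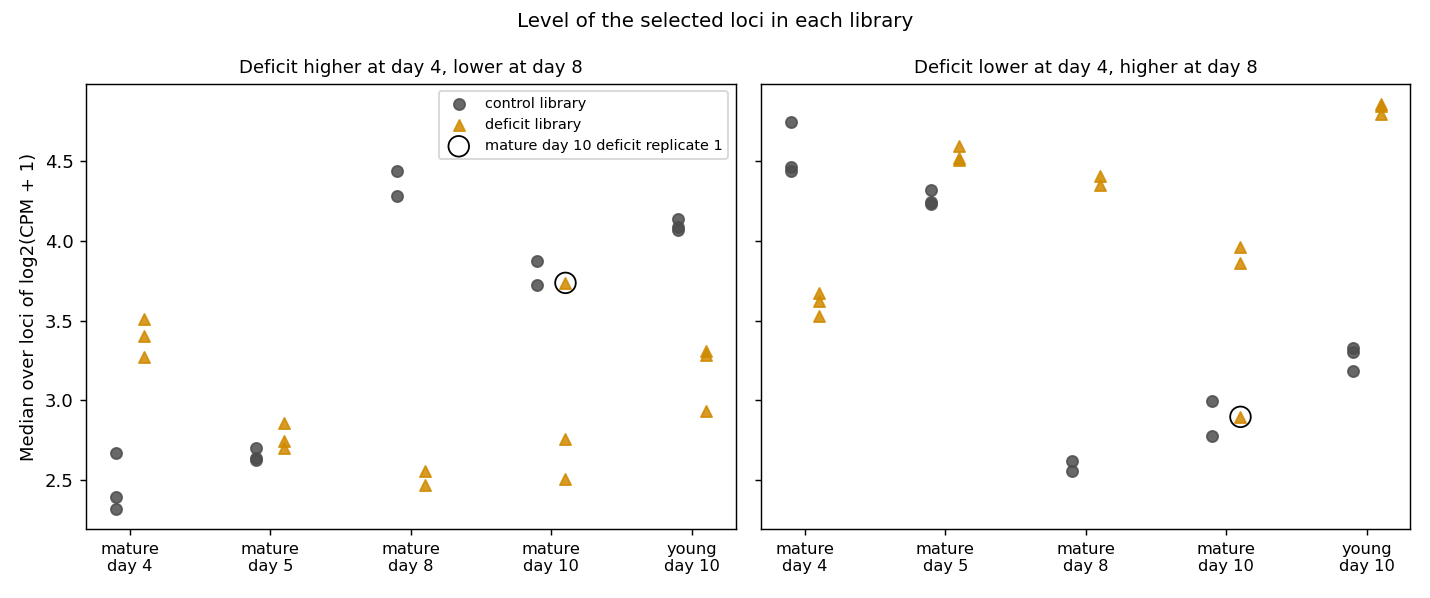
Median over the selected loci of log2(CPM + 1) in each of the 27 libraries (vertical axis), by leaf and day (horizontal axis); grey circles are control libraries, orange triangles are deficit libraries, and the ring marks replicate 1 of the mature day 10 deficit group. The deficit libraries of day 4 stand apart from those of day 5, the control libraries of days 8 and 10 stand apart from those of days 4 and 5, and the ringed library lies among the control libraries of its day.

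Counted locus by locus, the control arm moved more than the deficit arm between days 4 and 8 at 84 of the 101 low-then-high loci, with a median change of -1.59 in control and 0.75 in deficit. At the high-then-low loci the control arm moved more at 32 of 49, with medians of 1.34 in control and -0.91 in deficit. For comparison, the control arm moved more at 13432 of all 19087 loci. Between days 4 and 5 the deficit mean moved mainly in one direction within each set. It was higher at day 5 than at day 4 at 96 of the 101 low-then-high loci, with a median change of 0.74. It was lower at 44 of the 49 high-then-low loci, with a median change of -0.60. In the same interval the control mean went up at 46 and down at 55 of the low-then-high loci. It went up at 36 and down at 13 of the high-then-low loci, so there the control mean also moved mainly one way. Over all 19087 loci tested the deficit mean went up at 7682 and down at 11372. The control mean went up at 7529 and down at 11522 of them. These changes share the day 4 libraries that chose the loci and carry no test.

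The locus with the largest reversal of all was Solyc10g081570.3, a high-then-low locus. It had 19.3, 21.6 and 17.4 CPM in the control libraries of day 4 and 74.1, 118 and 72.9 CPM in the deficit libraries. At day 8 it had 48.2 and 41.2 CPM in control against 10.3 and 11.4 CPM in deficit. The arms did not overlap on either day and exchanged their order. At day 5 the control libraries had 21.6, 25.1 and 28.1 CPM and the deficit libraries 16.6, 16.4 and 22.4 CPM, which overlap. In young leaf the values were 94.6, 96.2 and 85.5 CPM in control and 6.64, 9.51 and 10.4 CPM in deficit. The young leaf difference was a fall by 3.40 on the log2 scale (SE 0.59, adjusted p = 5.17e-05, edgeR, quasi-likelihood test, p-values adjusted by Benjamini-Hochberg over all loci tested). In mature leaf at day 10 the control libraries had 86.6 and 88.7 CPM, and replicates 2 and 3 of the deficit group had 11.96 and 10.3 CPM. Replicate 1 had 97.5 CPM, and with it the difference did not pass the threshold (adjusted p = 0.123), whereas without it the log2 difference was -3.03 (SE 0.22, adjusted p = 2.6e-10).

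The second high-then-low locus by size of reversal, Solyc06g062430.3, rested on low values at day 4, 0.578, 0.518 and 0.814 CPM in control and 2.70, 3.22 and 4.46 CPM in deficit. At day 8 it had 44.4 and 40.8 CPM in control and 2.06 and 2.92 CPM in deficit. The deficit libraries of these 2 days thus lay within a narrow range, while the control libraries of day 8 stood far above those of day 4. The deficit level was not steady between them. At day 5 it was 0.854, 0.584 and 0.841 CPM, against 0.565, 0.688 and 0.818 CPM in control. In young leaf it had 77.8, 77.0 and 67.8 CPM in control against 4.39, 4.56 and 3.35 CPM in deficit, a log2 difference of -4.20 (SE 0.78, adjusted p = 0.000101, edgeR).

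Among the low-then-high loci the largest reversal was that of Solyc00g500064.1, on unplaced sequence, and its libraries differed widely within a group. It had 4.73, 3.83 and 0 CPM in control at day 4, with 0 in all deficit libraries, and 3.61 and 0 CPM in deficit at day 8, with 0 in both control libraries. One library of the higher group lay at 0 on each day, so the arms overlapped, and the difference passed the threshold in none of the comparisons not used to choose it (adjusted p = 0.32 at day 5 and 0.918 in young leaf, edgeR). All 5 mature day 10 libraries had 0.

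The next, Solyc06g074030.1, had 26.9, 21.97 and 17.8 CPM in control at day 4 and 7.43, 6.89 and 6.37 CPM in deficit. At day 8 it had 1.73 and 1.82 CPM in control and 6.29 and 5.73 CPM in deficit. The deficit level was much the same on both days, and the control level went from above it to below it. At day 5 the order was already that of day 8, with 14.0, 15.6 and 11.8 CPM in control and 42.2, 43.3 and 36.8 CPM in deficit, a log2 difference of 1.47 (SE 0.19, adjusted p = 1.34e-05, edgeR). In young leaf it had 10.9, 12.3 and 13.6 CPM in control against 38.5, 31.4 and 40.0 CPM in deficit, a log2 difference of 1.55 (SE 0.19, adjusted p = 1.05e-06, edgeR). This locus therefore differed on day 5 and in young leaf in the direction opposite to that of day 4.

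**Figure D2:**
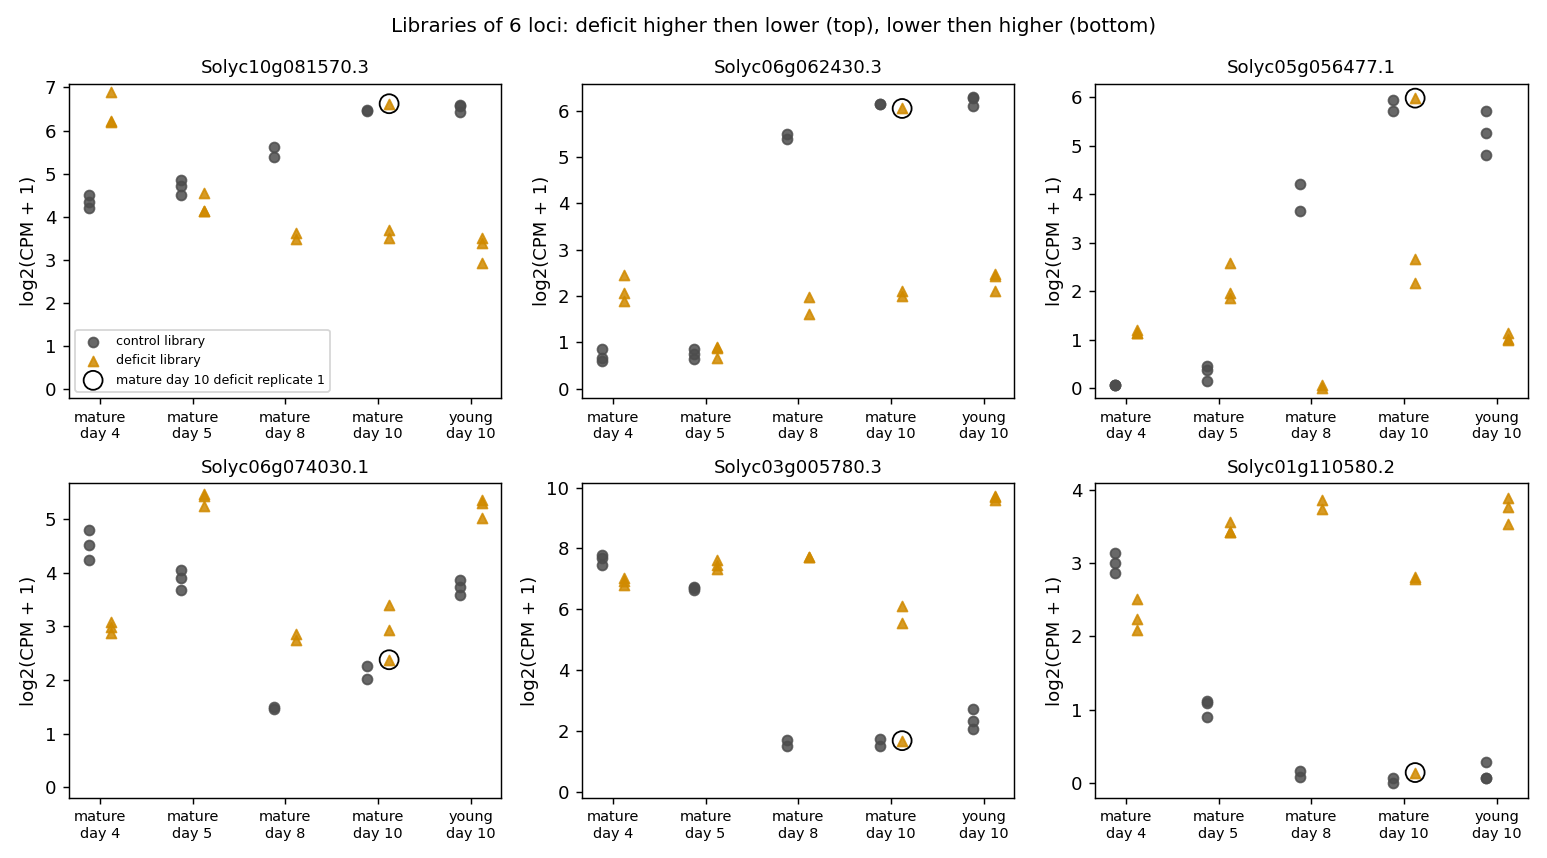
Level of 6 of the named loci as log2(CPM + 1) (vertical axis) in each library, by leaf and day (horizontal axis); grey circles are control libraries, orange triangles deficit libraries, and the ring marks replicate 1 of the mature day 10 deficit group. In the top row deficit is above control at day 4 and below it at day 8, in the bottom row the reverse, and in the top row and in the 2 right panels of the bottom row the ringed library lies at the control level of its day.

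Day 5 lies between the days that chose the loci and shares no library with them. The sets were mixed there. Among the high-then-low loci, the deficit mean was higher at 32 and lower at 17 of 49, with a median difference of 0.18. Of these, 9 were called higher (background 14.6% of all loci tested) and 3 were called lower (13.2%), at an adjusted p below 0.05 in edgeR's quasi-likelihood test on all libraries. Among the low-then-high loci, the deficit mean was higher at 46 and lower at 55 of 101, with a median of -0.09. Of these, 15 were called higher and 26 lower. Over all loci tested the deficit mean was higher at 60.4% and lower at 39.5%, with a median of 0.07. As shares of the set, 18.4% of the high-then-low loci were called higher, 14.9% of the low-then-high loci were called higher, and 25.7% of the latter were called lower. Without replicate 1 of the mature day 10 deficit group, which is not of this day but enters the shared estimate of spread, 27 low-then-high loci were called higher and 42 lower, and 11 high-then-low loci were called higher and 7 lower, against 21.8% of all loci in each direction. In both fits the share called lower among low-then-high loci, in the direction of day 4, stood further above its background than the other 3 shares.

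Loci were ranked by the size of a called difference among those with a group mean of at least 5 CPM in that comparison, here and at day 10. The 2 low-then-high loci with the largest called rises at day 5 had both left their day 4 order. Solyc10g076670.4 had 0.206, 0.477 and 0.436 CPM in control and 30.9, 17.6 and 24.7 CPM in deficit, a log2 difference of 5.92 (SE 0.62, adjusted p = 5.61e-06, edgeR). The high level was that of the day 5 deficit libraries, since the day 4 deficit libraries had 0.495, 0.621 and 0.174 CPM and those of day 8 had 2.42 and 4.27 CPM. Solyc01g110580.2 had 1.13, 1.17 and 0.873 CPM in control and 9.72, 9.76 and 10.7 CPM in deficit at day 5, a log2 difference of 3.15 (SE 0.58, adjusted p = 0.000508, edgeR). At this locus control went from 7.04, 7.82 and 6.30 CPM at day 4 to 0.124 and 0.0553 CPM at day 8. At day 8 the deficit group had 490 counts and the control group 3.

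The 2 with the largest called falls at day 5 kept the order of day 4. Solyc02g071010.1 had 819, 795 and 720.0 CPM in control and 171, 192 and 158 CPM in deficit, a log2 difference of -2.25 (SE 0.14, adjusted p = 7.28e-10, edgeR). In young leaf its order was reversed, with 119, 113 and 156 CPM in control and 1051, 954 and 895 CPM in deficit (log2 difference 2.88, SE 0.14, adjusted p = 7.76e-12). Solyc11g021060.2 had 7.76, 10.8 and 8.45 CPM in control and 2.99, 2.07 and 3.30 CPM in deficit at day 5, a log2 difference of -1.78 (SE 0.45, adjusted p = 0.00645). This locus was high in young leaf in both arms, at 236, 183 and 167 CPM in control and 121, 181 and 88.9 CPM in deficit, where the arms overlapped. In the mature day 8 control libraries it had 0.124 and 0.0553 CPM.

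**Figure D3:**
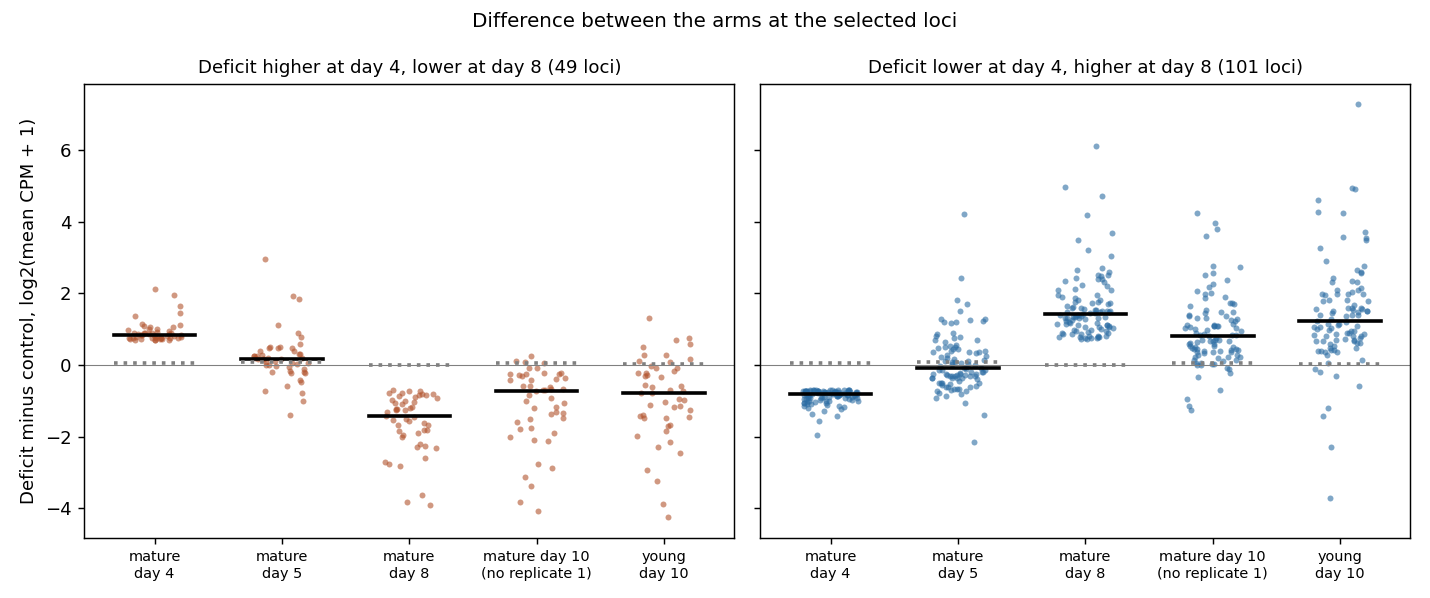
Deficit minus control in log2(mean CPM + 1) (vertical axis) for each of the 49 and 101 selected loci (points), by leaf and day (horizontal axis), with the median of the set as a black line and the median of all loci tested as a dotted grey line; mature day 10 is drawn without deficit replicate 1. Days 4 and 8 are separated by the selection, day 5 lies around 0 in both panels, and day 10 and young leaf lie on the side of day 8.

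At day 10 the mature leaves carried the sign of day 8. The deficit mean was lower at 46 and higher at 3 of the 49 high-then-low loci, with a median difference of -0.57. It was higher at 91 and lower at 9 of the 101 low-then-high loci, with a median of 0.59. Over all loci tested it was higher at 55.0% and lower at 44.9%. With all libraries 19 high-then-low loci were called lower, against 12.4% of all loci tested, and 0 higher, against 22.7%. Of the low-then-high loci 58 were called higher and 0 lower. For these counts of 0 in edgeR, an unadjusted p under 0.05 was found at 0 high-then-low loci in the higher direction and at 2 low-then-high loci in the lower direction, and DESeq2 called 0 and 1. Without replicate 1 of the deficit group, 35 high-then-low loci were called lower (29.8% of all loci) and 67 low-then-high loci higher (32.6%), while 4 low-then-high loci were called lower. The median differences were then -0.74 and 0.80. With all libraries the calls at mature day 10 depended on each library of that day. Leaving out control replicate 2 gave 0 calls in the direction of day 8, leaving out control replicate 3 gave 18, and leaving out deficit replicate 2 or 3 gave 40 or 35, against 77 with all libraries. With only the 5 libraries of the comparison in the fit, none of the 150 loci was called (0 in edgeR), and without replicate 1 in such a fit 103 were called in that direction.

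Among loci with a group mean of at least 5 CPM, the low-then-high loci with the largest called rises at mature day 10 were Solyc03g005780.3 and Solyc07g041920.5. Loci with fewer counts were also called, some with larger fitted differences, among them Solyc01g110580.2 with 206 counts in deficit and 1 in control. Solyc03g005780.3 had 2.29 and 1.84 CPM in control and 2.20, 45.4 and 68.2 CPM in deficit, where the low value is that of replicate 1. The log2 difference was 4.16 (SE 0.80, adjusted p = 0.0034, edgeR), and 4.71 without replicate 1 (SE 0.24, adjusted p = 1.05e-13). At day 4 it had 220.2, 204 and 176 CPM in control and 129, 109.7 and 122 CPM in deficit, so the level in control was far lower at day 10 than at day 4. Solyc07g041920.5 had 1.01 and 0.866 CPM in control and 0.682, 19.9 and 25.1 CPM in deficit (log2 difference 3.94, SE 0.82, adjusted p = 0.0034, edgeR). Without replicate 1 the latter was 4.50 (SE 0.23, adjusted p = 6.59e-16). Replicate 1 lay within the control range at the first locus and below it at the second, and the other 2 deficit libraries lay above control at both. Neither was called with mature day 10 control replicate 2 left out (adjusted p = 0.0517 for each) or in a fit of the compared libraries alone (adjusted p = 0.49 for each), replicate 1 included.

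At the same minimum level, the largest called falls at mature day 10 were those of Solyc07g061920.4 and Solyc02g072240.3, both high-then-low. Solyc07g061920.4 had 22.9 and 26.5 CPM in control and 19.2, 5.96 and 3.87 CPM in deficit, a log2 difference of -1.36 (SE 0.37, adjusted p = 0.0116, edgeR), or -2.37 without replicate 1. Solyc02g072240.3 had 9.02 and 7.36 CPM in control and 6.61, 1.12 and 2.17 CPM in deficit, a log2 difference of -1.32 (SE 0.42, adjusted p = 0.0234), or -2.43 without replicate 1. Here the deficit libraries all lay below control, with replicate 1 nearest to it. Both falls passed the threshold in none of the fits without mature day 10 control replicate 2 (adjusted p = 0.0547 and 0.129), control replicate 3 (0.0826 and 0.0735) or deficit replicate 2 (0.0685 and 0.0981). The same held in a fit of the compared libraries alone (0.49 for each), and that of Solyc02g072240.3 was also lost without deficit replicate 3 (0.105). In young leaf the loci parted. Solyc07g061920.4 was lower in deficit (log2 difference -1.98, SE 0.35, adjusted p = 5.81e-05), while Solyc02g072240.3 had 12.8, 14.4 and 14.3 CPM in control and 15.9, 17.5 and 18.2 CPM in deficit (adjusted p = 0.48).

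Young leaf shares no library with the comparisons that chose the loci and holds 3 libraries per arm. There the deficit mean was lower at 39 and higher at 10 of the high-then-low loci, with a median difference of -0.78. It was higher at 93 and lower at 8 of the low-then-high loci, with a median of 1.22. Over all loci tested it was higher at 51.5% and lower at 48.5%. Of the high-then-low loci 29 were called lower, against 35.2% of all loci tested, and 5 higher, against 36.2%. Of the low-then-high loci 84 were called higher and 5 lower. Every deficit library lay below every control library at 32 high-then-low loci (36.8% of all loci) and above at 88 low-then-high loci (39.9%). As shares, 59.2% of the high-then-low loci fell and 83.2% of the low-then-high loci rose in young leaf.

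**Figure D4:**
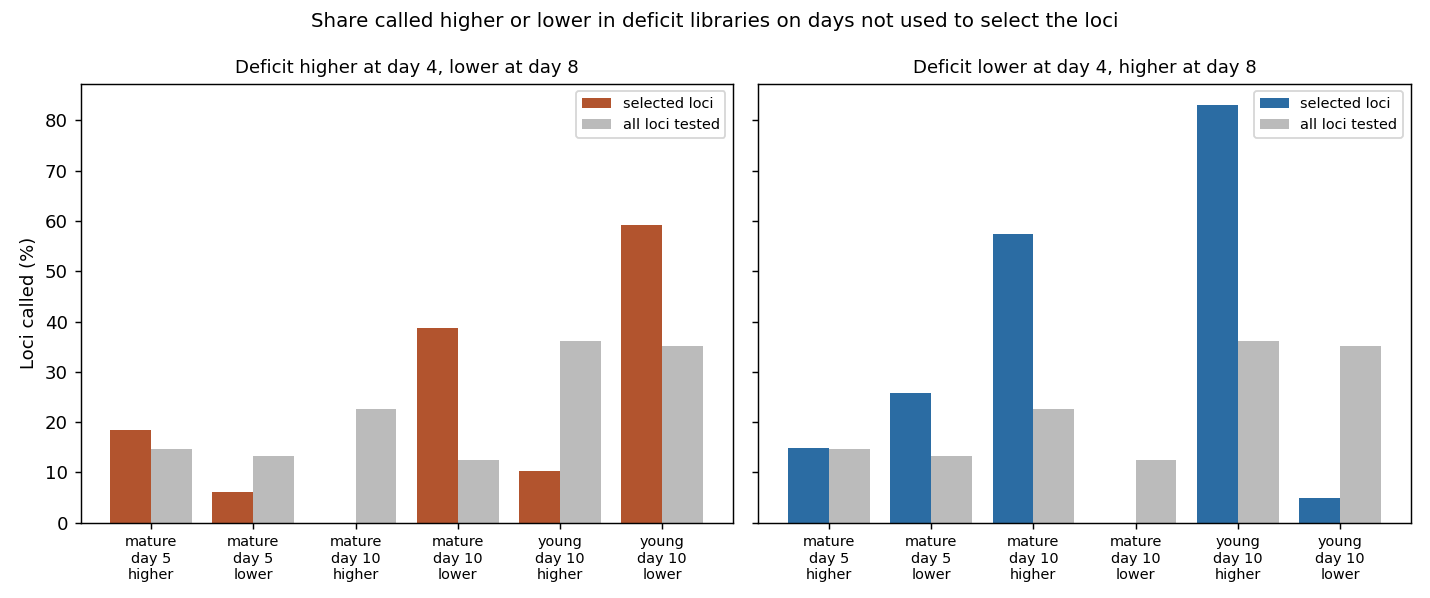
Percent of loci called higher or lower in deficit libraries (vertical axis; edgeR, adjusted p below 0.05, all libraries) in the 3 comparisons that did not choose the loci (horizontal axis), for the selected loci (coloured bars) and all 19087 loci tested (grey bars). At mature day 10 and in young leaf the coloured bars exceed the grey ones in the direction of day 8 and fall under them in the direction of day 4.

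Among loci with a group mean of at least 5 CPM, the largest called rise in young leaf was that of Solyc07g005370.5. It had 0, 0.054 and 0.105 CPM in control and 11.6, 15.7 and 11.4 CPM in deficit, which is 3 counts against 667. The ratio of the group sums was 241.8, with an exact 95% interval of 82.4 to 1180 that covers counting error only (adjusted p = 1.79e-08, edgeR). Solyc03g005780.3 followed, with 3.21, 4.00 and 5.54 CPM in control and 848, 826 and 781 CPM in deficit, a log2 difference of 7.56 (SE 0.72, adjusted p = 1.02e-07). It stood among the most widely separated loci in young leaf. At day 5 it had 105, 104 and 97.7 CPM in control and 174, 194 and 158 CPM in deficit, without overlap. The log2 difference of 0.69 did not pass the threshold there (SE 0.53, adjusted p = 0.365, edgeR). That fit shares 1 estimate of spread over all groups, replicate 1 of the mature day 10 deficit group included. The largest called fall in young leaf at this minimum level was that of Solyc05g056477.1, with 51.4, 37.3 and 27.0 CPM in control and 1.04, 0.989 and 1.20 CPM in deficit, a log2 difference of -5.18 (SE 0.83, adjusted p = 2.36e-05). This high-then-low locus was higher in deficit at day 5, at 0.308, 0.106 and 0.382 CPM in control and 2.88, 2.65 and 4.98 CPM in deficit (log2 difference 3.60, SE 1.11, adjusted p = 0.0214). The day 5 call was lost without control replicate 1, control replicate 2 or deficit replicate 3 of that day (adjusted p = 0.0624, 0.0732 and 0.0656). Solyc06g062430.3, described above, had the next largest called fall at this level.

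The selected loci were then set beside other loci with day 8 differences of the same sign. Among the other loci tested whose day 8 difference was at least as large as the smallest in the set, 3474 were lower in deficit and 3698 higher. Their median day 8 differences were -1.07 and 1.21, against -1.42 and 1.43 for the selected sets, so the sizes were not matched. Of the 3474, 43.8% were called lower at mature day 10 and 90.7% in young leaf, against 38.8% and 59.2% of the 49 high-then-low loci. Of the 3698, 75.0% were called higher at mature day 10 and 91.0% in young leaf, against 57.4% and 83.2% of the 101 low-then-high loci. Without replicate 1 the shares called at mature day 10 were 87.2% against 71.4% for falls, and 87.1% against 66.3% for rises. The share called with the sign of day 8 was the smaller for the selected loci in each of these pairs. The median differences did not all follow the shares. At mature day 10 the median was -0.57 over the high-then-low loci against -0.44 over the 3474, or -0.74 against -0.70 without replicate 1, and 0.59 over the low-then-high loci against 0.80 over the 3698, or 0.80 against 1.07 without it. In young leaf the medians were -0.78 against -0.86 and 1.22 against 1.25. At day 5, 26.6% of the 3474 were called lower and 37.0% of the 3698 higher, against 6.12% and 14.9% of the selected sets. In the direction of day 4, 1.32% and 2.41% of the other loci were called at day 5, against 18.4% and 25.7% of the selected sets. Over all loci tested, 14.6% were called higher and 13.2% lower at day 5. The rule required an opposite day 4 difference of the selected loci, and the other loci were those that it left out. The contrasts between the 2 are therefore not independent of the selection, and these shares carry no test of their difference.

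The change of the difference between the arms was tested between days that had not chosen the loci. From day 5 to day 10 in mature leaf, the interaction of arm and day was called in the negative direction at 11 high-then-low loci (background 2.98%) and in the positive direction at 1 (6.54%). It was called in the positive direction at 44 low-then-high loci and in the negative direction at 2. Without replicate 1 the numbers were 33 negative and 0 positive for the high-then-low loci (1 positive at an unadjusted p under 0.05, and 0 in DESeq2 on all libraries), against backgrounds of 19.2% and 24.0%, and 66 positive and 4 negative for the low-then-high loci. Leaving out mature day 10 control replicate 2 or 3 lowered the number called toward the sign of day 8 from 55 to 34 or 22. The shift between days 5 and 10 thus went toward the sign of day 8 at nearly all selected loci at which it was called. Solyc11g021060.2 had the widest called shift among the named loci with all libraries (interaction 6.84, SE 1.26, adjusted p = 0.00209, edgeR), with 2 counts in the mature day 10 control group. It was 7.44 without replicate 1 (adjusted p = 1.38e-05), and it was not called in a fit of the compared libraries alone (6.85, adjusted p = 0.115). Solyc06g074030.1, which had crossed by day 5, had an interaction of -0.53 (SE 0.31, adjusted p = 0.299), or -0.29 without replicate 1 (adjusted p = 0.409).

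The same interval was also tested within each arm. In control, 24 high-then-low loci were higher at day 10 than at day 5 (17.0% of all loci) and 1 was lower (21.2%), while 87 low-then-high loci were lower and 0 higher (edgeR; 0 at an unadjusted p under 0.05 and 0 in DESeq2). In deficit, 7 high-then-low loci were higher (18.5%) and 6 lower (16.9%), and 59 low-then-high loci were lower and 2 higher. All 59 that were lower in deficit were among the 87 that were lower in control, and over the whole set the means had median changes of -1.31 in control and -0.64 in deficit, or -0.43 in deficit without replicate 1. Without that library, and in contrast to the fit that held it, 20 high-then-low loci were lower and 3 higher in deficit (22.6% and 23.3% of all loci), and 56 low-then-high loci were lower, each of them lower in control too, and 12 higher. In control the same fit called 32 high-then-low loci higher (23.7%) and 90 low-then-high loci lower (26.9%).

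The difference between the arms at day 10 was also compared between leaf ages. The interaction was called in the positive direction, a more positive difference in young than in mature leaf, at 38 low-then-high loci (background 6.26%) and in the negative direction at 4 (8.78%). Of the high-then-low loci 5 were called in the positive and 6 in the negative direction. Without replicate 1 the low-then-high numbers were 38 and 8, and the high-then-low numbers 14 and 5, with a background of 10.8% in each direction. In the control arm the young leaf means of the low-then-high loci exceeded the mature means at 72 of 101 loci, with a median difference of 0.42. In the deficit arm they did so at 80, with a median of 1.20, or at 73 with a median of 0.98 without replicate 1. Of all 19087 loci tested, young leaf means were higher at 9767 in control and at 8265 in deficit, or 8327 without replicate 1.

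The chromosome digits of the identifiers placed 19 of the 150 loci on each of chromosomes 2, 3 and 6, or 12.7% each, where 10.8%, 10.6% and 8.73% of all loci tested lie. Chromosomes 8 and 12 and the unplaced sequence held 6, 10 and 2 loci, all low-then-high. Identifier numbers within 50 of each other, which mark near neighbours on a chromosome, joined 13 of the loci into 5 stretches. Of the 5, 4 held low-then-high loci only. Low-then-high loci make up 101 of the 150, and no such counts are given for other loci, so nothing is read from these numbers. The longest was on chromosome 2, with 5 low-then-high loci among the 7 identifiers of the stretch, and Solyc02g071010.1 is one of them. It was singled out after its values were seen. Neighbouring loci can be near-identical copies between which reads are split, so the values of the 5 are also given as a sum.

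The summed level of these 5 loci was 1650, 1496 and 1398 CPM in the control libraries of day 4 and 870.3, 784.9 and 841.6 CPM in the deficit libraries. At day 5 it was 2451, 2615 and 2335 CPM in control against 1593, 1720 and 1354 CPM in deficit. At day 8 it was 425.6 and 404.2 CPM in control against 2179 and 2253 CPM in deficit. The control sum was thus above deficit on days 4 and 5 and far below it at day 8, without overlap on any of these days. At mature day 10 it was 345.0 and 313.1 CPM in control and 347.8, 597.0 and 855.4 CPM in deficit, the first of these being replicate 1. In young leaf it was 434.2, 465.7 and 603.6 CPM in control and 4159, 3691 and 3563 CPM in deficit, the highest of all groups. Each of the 5 loci was called higher in the deficit libraries of young leaf, with log2 differences from 2.64 to 5.10, and 4 of the 5 were called lower at day 5, with log2 differences from -2.25 to -0.60 (edgeR). The remaining one had a log2 difference of -0.35 at day 5 (adjusted p = 0.28), or -0.36 without replicate 1 of the mature day 10 deficit group, where it was called (adjusted p = 0.0336). The sum was carried mainly by this locus, with a mean of 1101 CPM in control at day 4 and 1545 at day 5, and by Solyc02g071010.1, with 273 and 778 CPM. The 2 other identifiers of the stretch had the same signs, with differences in log2(mean CPM + 1) of -0.64 and -0.64 at day 4 and 3.57 and 1.56 at day 8.

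**Figure D5:**
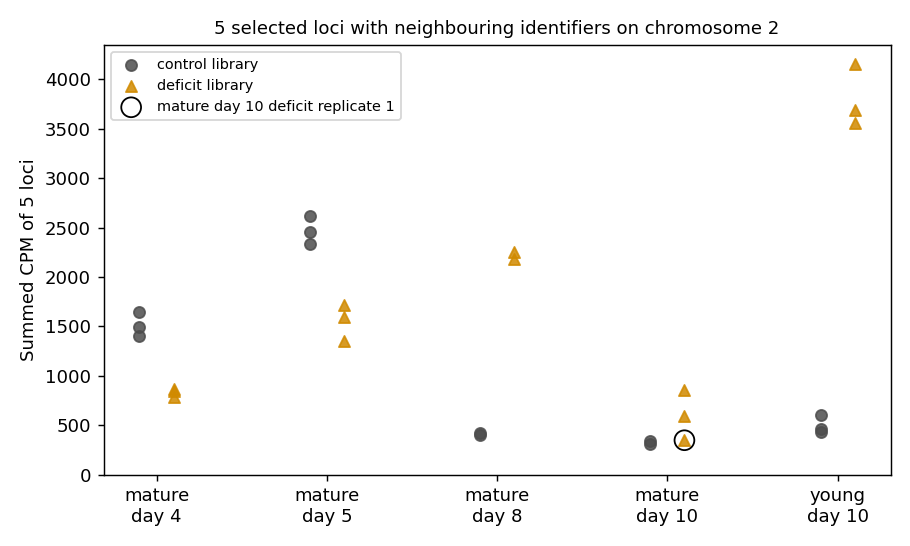
Summed CPM of the 5 selected loci with neighbouring identifiers on chromosome 2 (vertical axis) in each library, by leaf and day (horizontal axis); grey circles are control libraries, orange triangles deficit libraries, and the ring marks replicate 1 of the mature day 10 deficit group. Control lies above deficit at days 4 and 5, deficit lies above control at day 8 and in young leaf, and the ringed library lies just above the control libraries of its day.

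Across the 5 comparisons in log2(mean CPM + 1), with mature day 10 taken without replicate 1, 2 orders of signs covered most of the loci. Of the 101 low-then-high loci, 45 were negative on days 4 and 5 and positive in the 3 other comparisons, and 43 were negative at day 4 alone. Of the 49 high-then-low loci, 24 were positive at days 4 and 5 and negative afterwards and in young leaf, and 13 were positive at day 4 alone. The remaining 13 low-then-high and 12 high-then-low loci did not carry the sign of day 8 in both mature leaf at day 10 and young leaf. These are signs of means and carry no test.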

How the data were processed

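The authors deposited raw read counts per locus for 27 libraries of polyadenylated RNA. DESeq2 is named in the submitters' processing notes without a role, and the aligner, counter, genome build and use of strand are not given in the sources used here. Columns were matched to libraries by the sample descriptions, and groups come from the titles. Of 34688 loci, 10322 had no count, and 19087 passed filterByExpr. The fit used edgeR 4.0.16 under R 4.3.3 (TMM scaling, one coefficient per group over all libraries, robust quasi-likelihood F test). P-values were adjusted by Benjamini-Hochberg over all loci tested, with a call at an adjusted p under 0.05. The selection used CPM by column total and a pseudocount of 1. The code was tested on simulated data.

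The selected loci and the comparisons were chosen with earlier results of these data known. Named loci were the 2 of each set with the largest smaller difference, and the 2 called higher and 2 called lower with the largest log2 differences in each of the 3 comparisons not used to choose them, at a group mean of at least 5 CPM. None of the locus identifiers (0 matched) is in the reference table of 41476 genes (SLM_r2.1), so the planned gene lists and tissue markers were not used. Intervals cover counting error only. Alternatives were RLE scaling, DESeq2 1.42.0, other filters, only the compared groups, a replicate block, left-out libraries and other forms of the selection. Replicate numbers showed no clear pairing of the libraries where this could be checked, so no block was used.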

Additional observations from a re-analysis of the deposited data

Results flagged for a closer look

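The difference between the arms changed between groups of libraries, by the test of the interaction itself, at part of the selected loci. Between mature leaf at day 5 and at day 10 this was called at 12 high-then-low and 46 low-then-high loci (edgeR, adjusted p below 0.05, all libraries). Of all 19087 loci tested, 6.54% were called in the positive and 2.98% in the negative direction. Between young and mature leaf at day 10 it was called at 11 high-then-low and 42 low-then-high loci. There 6.26% of all loci tested were called in the positive and 8.78% in the negative direction. Both comparisons hold replicate 1 of the mature day 10 deficit group, whose levels lay at those of control, and the values without it are given above. Groups of libraries were too small to look for single outlying libraries by their spacing.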

How the results depend on the processing

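Calls are summed here over both sets, by whether they had the sign of the day 8 or of the day 4 difference. Within an arm the sign is that of the change from day 5 to day 10, not of a difference between the arms. A control fall at a low-then-high locus thus counts with day 4, although by itself it raises deficit minus control. RLE scaling and no filter changed none of these sums by over 1.5 times. In a fit of the compared groups alone, the number called with the sign of day 8 was 34 at mature day 5 (18 with all groups), 0 at mature day 10 (77), 2 in the control arm from day 5 to 10 (1), 0 in the deficit arm (8), 6 for the interaction with day (55) and 18 for that with leaf age (44). With the sign of day 4 it was 19 in the deficit arm (66), 1 for the interaction with day (3) and 3 for that with leaf age (9). Leaving out mature day 10 deficit replicate 1 as well, an alternative chosen after seeing the data, gave 4 with the sign of day 4 at mature day 10 (0), 29 with that of day 8 in the deficit arm, 99 for the interaction with day, and 21 with the sign of day 4 for the interaction with leaf age. DESeq2 and the filter at a mean CPM of at least 1 each called 1 locus with the sign of day 4 at mature day 10, and 2 and 0 loci with that of day 8 in the control arm.

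With a replicate block, 2 loci were called with the sign of day 4 at mature day 10 (0 without it), and no other sum moved by over 1.5 times. The deviations of same-numbered libraries correlated at 0.00478 to 0.158 at mature day 5, at -0.0379 and 0.0228 at mature day 10, and at -0.14 to -0.00536 in young leaf, so the numbers did not pair the libraries.

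Leaving out one library at a time, the number called with the sign of day 8 ranged from 13 to 34 at mature day 5, 0 to 102 at mature day 10, 109 to 118 in young leaf, 0 to 1 in the control arm, 5 to 32 in the deficit arm, 22 to 99 for the interaction with day and 31 to 58 for that with leaf age. With the sign of day 4 the ranges were 26 to 53, 0 to 4, 9 to 11, 96 to 122, 56 to 75, 1 to 4 and 6 to 22. Most of the highest values were those without mature day 10 deficit replicate 1, and the cause was not tested further. The young leaf sums moved least.

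The selection itself depended on the pseudocount: 97 of the 150 loci were also chosen with a pseudocount of 0.25 and 93 with one of 5. Leaving out a day 4 or day 8 library kept 120 to 145 of them.

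Among the named loci, 103 results under an alternative lost the threshold, 50 passed it newly and 1209 kept their side. The change of Solyc10g081570.3 from day 5 to day 10 in the deficit arm, 1.13 with all libraries and not called, was 1.58 without mature day 10 deficit replicate 2 or 3 (called), -0.74 without mature day 10 deficit replicate 1 (adjusted p = 0.00969, edgeR) and -0.76 with only the compared groups and no such replicate. Few counts limit loci under 5 CPM, and replicate 1 limits every mature day 10 value.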
